A study of Homo sapiens with 6 samples.

Results

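The cytosolic ribosomal protein genes were examined by RNA-seq in HCT116, an established line of epithelial cells from a human colorectal carcinoma. They were taken by name, as RPL or RPS followed by digits and an optional A or X, with RPLP0, RPLP1, RPLP2 and RPSA, which gave 77 of the 26255 gene symbols measured. Of these, 46 belong to the large subunit and 31 to the small subunit of the ribosome. The study silenced the long noncoding RNA LINC01534 to ask what it does in colorectal cancer cells. Its poly(A)-selected libraries fall into 3 groups of 2, namely parent HCT116 cells, cells given the small interfering RNA siLINC01534-1 and cells given siLINC01534-2, all of the same line. No source says that the parent cells were transfected, and cells given a negative control siRNA were not analysed here, so the effect of transfection and that of either siRNA cannot be told apart. No label says that the 2 libraries of a group came from separate cultures, so the p-values measure only the spread between these libraries.

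Each cytosolic ribosome is built from ribosomal RNA and a full set of ribosomal proteins in fixed proportions, so that cells make these proteins in a coordinated way. Their mRNAs are among the most abundant in dividing cells and mostly start with a C followed by an unbroken run of pyrimidines, the 5′ terminal oligopyrimidine (TOP) tract, through which the kinase mTORC1 and the protein LARP1 control their translation. Several ribosomal proteins also act outside the ribosome, and free RPL5 and RPL11 bind MDM2, the ubiquitin ligase that holds p53 in check.

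All values are FPKM, in which the fragments counted for a gene are divided by its length and by the depth of the library. This makes them a level per length, which can be compared between genes only as far as the lengths used are right. Estimated depth was 8690000 to 10400000 reads per library. LINC01534 itself was listed at 0.285 and 0.571 FPKM in parent cells, at 0 and 0.283 with siLINC01534-1, and at 0.660 and 0.551 with siLINC01534-2. All of these are under 1 FPKM, and the values with siLINC01534-2 overlapped those of parent cells, so the silencing cannot be judged from these values. The study also measured it by quantitative PCR, which was not analysed here, and groups are called by their labels throughout. The 6 epithelial markers examined were all above 1 FPKM, while 0 of 4 leukocyte, 0 of 3 endothelial and 1 of 4 fibroblast markers were, the last being COL1A1.

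Since an siRNA can also repress mRNAs that pair with the seed of its antisense strand (bases 2 to 8), the seed matches of both siRNAs were located in the mRNAs of the ribosomal proteins. The sites below are printed for the 3 members with a match to the seed of siLINC01534-1 that were lower with it (RPL22, RPL10A and RPS10), beside the intended target and beside RPL4, a member with such a match that was not lower. Each is 19 bases in the sense of the transcript, 5′ to 3′, read from GRCh37 (hg19), and capitals mark the match to the seed. The positions in LINC01534 are exonic in the noncoding gene that GENCODE lists as ZNF567-DT, and the seed matches of the others lie in 3′ UTRs.
LINC01534, site of siLINC01534-1, chr19:37177640-37177658, minus strand: atcgagtggtgGAATAAAa
LINC01534, site of siLINC01534-2, chr19:37177588-37177606, minus strand: gaacgaggcttTTCGAGTt
RPL22, chr1:6246689-6246707, minus strand: tatgagttcttGAATAAAa
RPL10A, chr6:35438526-35438544, plus strand: aaggcacatttGAATAAAt
RPS10, chr6:34385251-34385269, minus strand: tcttttgcattGAATAAAc
RPL4, chr15:66791683-66791701, minus strand: cagcttcttttGAATAAAg
The seed match, in capitals, starts 35 bases after the stop codon in RPL22 and 9 bases after it in RPL10A. It starts 24 bases after the stop codon in RPS10, in the canonical transcript, and 54 bases after it in RPL4. The printed sites begin before the match, and that of RPL10A begins within the stop codon. Of its 19 bases the RPL22 site shares 13 with the LINC01534 site, that of RPL10A 10, that of RPS10 8 and that of RPL4 8. The 7-mer GAATAAA contains AATAAA, the most common polyadenylation signal.

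The start sites show what most of the family has in common. Windows of 30 bases, 20 before and 10 from the annotated start on, were read from RefSeq promoters (GRCh38.p14) on the strand of the gene, with the run of pyrimidines at the start in capitals. They are given for some abundant members (RPLP1, RPL41 and RPS6) and for the members called lower with an siRNA (RPL10A, RPL22, RPL24, RPS10 and RPS26).
RPLP1, chr15:69452798-69452827, plus strand: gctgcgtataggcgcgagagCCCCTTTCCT
RPL41, chr12:56116613-56116642, plus strand: gtagacggaacttcgCCTTTCTCTCggcct
RPS6, chr9:19380227-19380256, minus strand: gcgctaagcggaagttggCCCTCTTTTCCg
RPL10A, chr6:35468381-35468410, plus strand: gcgcatgcgcaagacatgctagTCTCTTTT
RPL22, chr1:6199586-6199615, minus strand: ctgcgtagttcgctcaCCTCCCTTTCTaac
RPL24, chr3:101686709-101686738, minus strand: gtctcttcccatgaTTCTCTCTTTCTTTTC
RPS10, chr6:34426060-34426089, minus strand: cagcaccgcgcatgCTCCTTCCTTTCCagc
RPS26, chr12:56041898-56041927, plus strand: gctgggagacacataacctcgaTTTTCTTC
RefSeq promoters were at hand for 62 of the 77 genes, with 77 starts in all. A run of at least 8 pyrimidines at the start was present at 70.1% of these starts, against 11.5% of all 35116 starts. CTTT on the sense strand, beginning within 5 bases of the start, was present at 51.9% of them, against 6.34% of all starts. CCGGAAG, a match to ETS factors, was found on either strand of 33.8% of the windows of 300 bases, against 10.3% of all of them. TATAAA was found in 6.49%, against 11.5%, and AAGATGGC in 7.79%, against 2.89%. Of the genes called lower, RPL10A, RPL22, RPL24 and RPS10 have CTTT at the start, as do RPLP1, RPL41 and RPS6, and RPS26 does not. Abundant members differ in this, since RPS18, RPLP0 and RPL12, all above RPS6 in parent cells, do not have it.

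In parent cells the ribosomal protein mRNAs were among the most abundant, with 76 of 77 genes above 1 FPKM and 59 at 1000 FPKM or more. The exception entered no test. Mean FPKM of the other 76 genes ran from 152 to 5442 with a median of 1489, whereas the median of all 12203 genes with a mean of at least 1 FPKM was 12.1. The medians of the large and the small subunit were 1437 and 1546 FPKM. The highest mean was 35.8 times the lowest.

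The highest level was that of RPL41, the smallest ribosomal protein, with 5282 and 5603 FPKM in the parent libraries. RPS2, which lines the entry of the mRNA channel, came next with 4849 and 4994 FPKM. The neighbours RPS18 (3472 and 3723 FPKM), a protein of the head of the small subunit, and RPLP1 (3514 and 3437 FPKM), an acidic stalk protein that recruits elongation factors, overlapped and cannot be ordered. RPS27, a zinc finger protein of the small subunit, followed with 2884 and 2981 FPKM, within the span of RPS12 (2814 and 3003 FPKM), so these neighbours cannot be ordered either.

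At the low end stood RPL27A, a large subunit protein, with 148.9 and 155.6 FPKM. RPL21, also of the large subunit, followed with 208.4 and 211.0 FPKM, then RPS23 of the decoding centre with 220.3 and 224.3 FPKM and RPL22 with 234.1 and 230.5 FPKM. RPL13 was next with 244.0 and 261.2 FPKM. These 5 genes did not overlap each other in the parent libraries. The canonical 3′ UTRs of RPL27A, RPS23, RPL22 and RPL13 are 4066, 2789, 1652 and 1500 bases long, and that of RPL21 is 43. The transcript lengths by which the FPKM were divided are not given, so the part of length in these low levels was not tested.

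**Figure D1:**
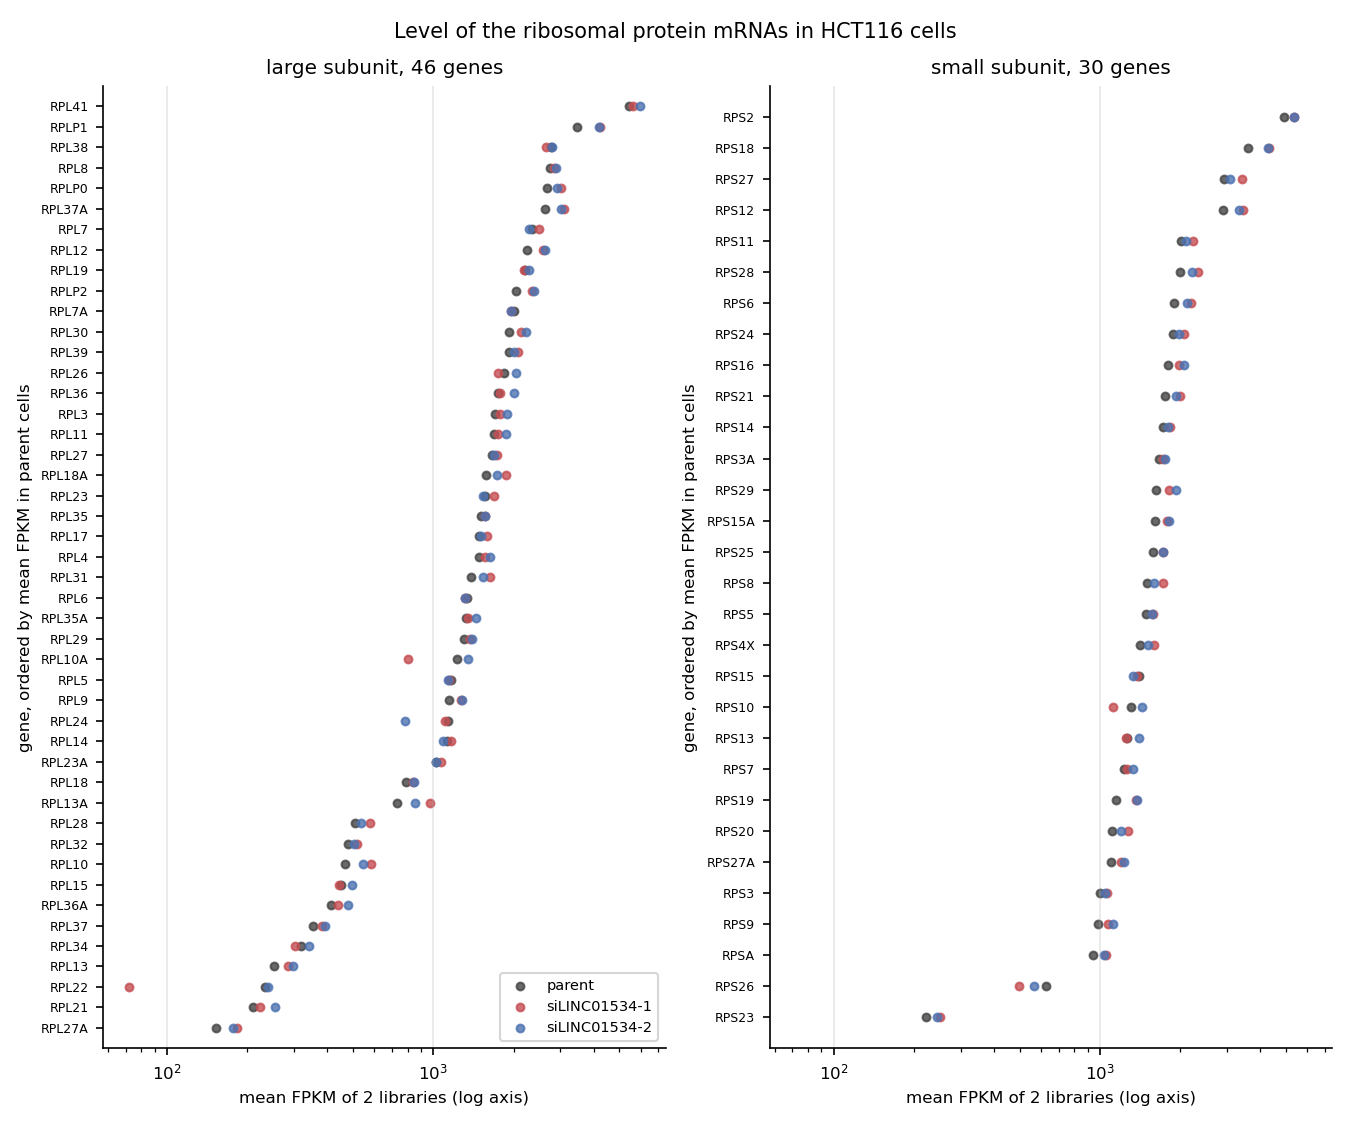
Mean FPKM of the 76 ribosomal protein genes above 0 (log axis, 2 libraries per point) in parent, siLINC01534-1 and siLINC01534-2 cells, ordered by the parent mean within each subunit. The 3 points of most genes lie close together, and RPL22 and RPL10A with siLINC01534-1 and RPL24 with siLINC01534-2 stand to the left of the others.

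Some of these levels are uncertain, because ribosomal protein genes have many near-identical processed copies between which reads may be split. The files list 31 pseudogene symbols, whose summed FPKM was 2.48% to 2.78% of that of the family. RPL21P28 was listed at 1579 and 1615 FPKM in parent cells, above RPL21 itself, and RPL13AP5 at 1256 and 1402 FPKM, above RPL13A with 715.2 and 740.4 FPKM. The values of RPL21 and RPL13A are therefore uncertain. Read-through genes were low beside their partners, with a parent mean of 22.1 FPKM for RPL36A-HNRNPH2 and 4.74 FPKM for RPS10-NUDT3. In addition, 29 members hold 58 snoRNA genes within their bounds, 4 of them in RPL13A.

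The replicates lay close together, with a median coefficient of variation of 2.94% in parent cells, 1.79% with siLINC01534-1 and 1.70% with siLINC01534-2. The parent libraries nevertheless differed in the same direction throughout the family, since parent library 2 was above parent library 1 for 74 of the 76 genes, with a median ratio of 1.04.

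Most ribosomal protein mRNAs had slightly higher values with either siRNA than in parent cells. With siLINC01534-1, 30 of the 76 tested genes were higher and 4 were lower at an adjusted p under 0.05 (limma on log2(FPKM + 1), two-sided, Benjamini-Hochberg over all 12203 tested genes), that is 44.7% of the family against 46.3% of all tested genes. Of all tested genes 21.8% were higher and 24.5% lower, so the share called was close to the background, while most of the calls in the family were higher and those over all genes were nearly balanced. With siLINC01534-2, 23 genes were higher and 1 was lower, 31.6% of the family against 22.8% of all tested genes, of which 11.1% were higher and 11.8% lower. Both comparisons use the same parent libraries. As the values are shares of the RNA of a culture, a change in every cell and a change in the mixture of cells, or in the amount of other RNA, cannot be told apart.

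Markers of cell type also differed between the groups. COL1A1, a fibroblast collagen, was at 3.02 and 3.05 FPKM in parent cells, 5.79 and 5.12 FPKM with siLINC01534-1 (log2 difference 0.68, limma adjusted p = 0.00249) and 4.25 and 3.79 FPKM with siLINC01534-2 (0.31, adjusted p = 0.057), while 2 of the 4 fibroblast markers were at 0 in every library. Of the 6 epithelial markers, 4 were lower and 0 higher with siLINC01534-1, and 3 were higher and 0 lower with siLINC01534-2. Their summed level was 3560 and 3634 FPKM in parent cells, 3012 and 3022 FPKM with siLINC01534-1, and 3642 and 3465 FPKM with siLINC01534-2. The part of these differences in the result was not tested.

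The size of the shift was small. The median log2 difference of the family was 0.11 with siLINC01534-1 and 0.13 with siLINC01534-2, while that of all tested genes was 0.00 in either comparison. The median ratios of mean FPKM were 1.08 and 1.09, beside the ratio of 1.04 between the parent libraries. Only RPL22, with siLINC01534-1, passed 2-fold, the fold the study's methods name, where 2.65% of all tested genes were more than 2-fold higher and 3.2% more than 2-fold lower. With siLINC01534-2, 0 genes did so, against 1.59% and 1.02% of all tested genes, and 0 did so in the mean of both siRNA groups, against 2.09% and 0.688%.

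The counts moved with single libraries and with the scale. With siLINC01534-1 the 34 calls became fewer whichever library was left out. The share called in the family stayed below that over all tested genes, except without parent library 2, where it was above. The median log2 difference of the family in these fits ran from 0.08 (without parent library 1) to 0.13 (without parent library 2). With siLINC01534-2 the 24 calls became 1 and 7 without parent library 1 or 2, 1.32% and 9.21% of the family against 7.41% and 7.02% of all tested genes. Without siLINC01534-1 library 1 or 2 they were 8 and 10, 10.5% and 13.2% against 15.8% in both, and without siLINC01534-2 library 1 or 2 they were 4 and 2, 5.26% and 2.63% against 9.79% and 7.29%. The larger share of calls in the family than over all genes with siLINC01534-2 was thus turned round in 5 of these 6 fits, while the median log2 difference of the family stayed between 0.09 and 0.14. When each library was scaled by its sum without short RNA genes, the calls with siLINC01534-2 rose to 40, 52.6% of the family against 22.3%. With the family also left out of that sum the calls were 61 and 45, or 80.3% and 59.2% of the family against 46.7% and 22.5% of all tested genes, and all genes were then called higher more often than lower, at 26.9% against 19.8% with siLINC01534-1 and 12.4% against 10.1% with siLINC01534-2. The family medians on that scale were 0.17 and 0.15, beside medians over all tested genes of 0.05 and 0.02.

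Read directly from the libraries, both siLINC01534-1 libraries lay above both parent libraries for 52 of the 76 genes and below them for 7, where 37.5% and 38.3% of all tested genes did so. Both siLINC01534-2 libraries lay above both parent libraries for 61 genes and below them for 6, against 32.1% and 32.7% of all tested genes. All 4 siRNA libraries lay above both parent libraries for 48 genes, 25 of 30 in the small subunit and 23 of 46 in the large subunit, and below them for 1 gene, RPS26, against 19% and 19.3% of all tested genes.

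**Figure D2:**
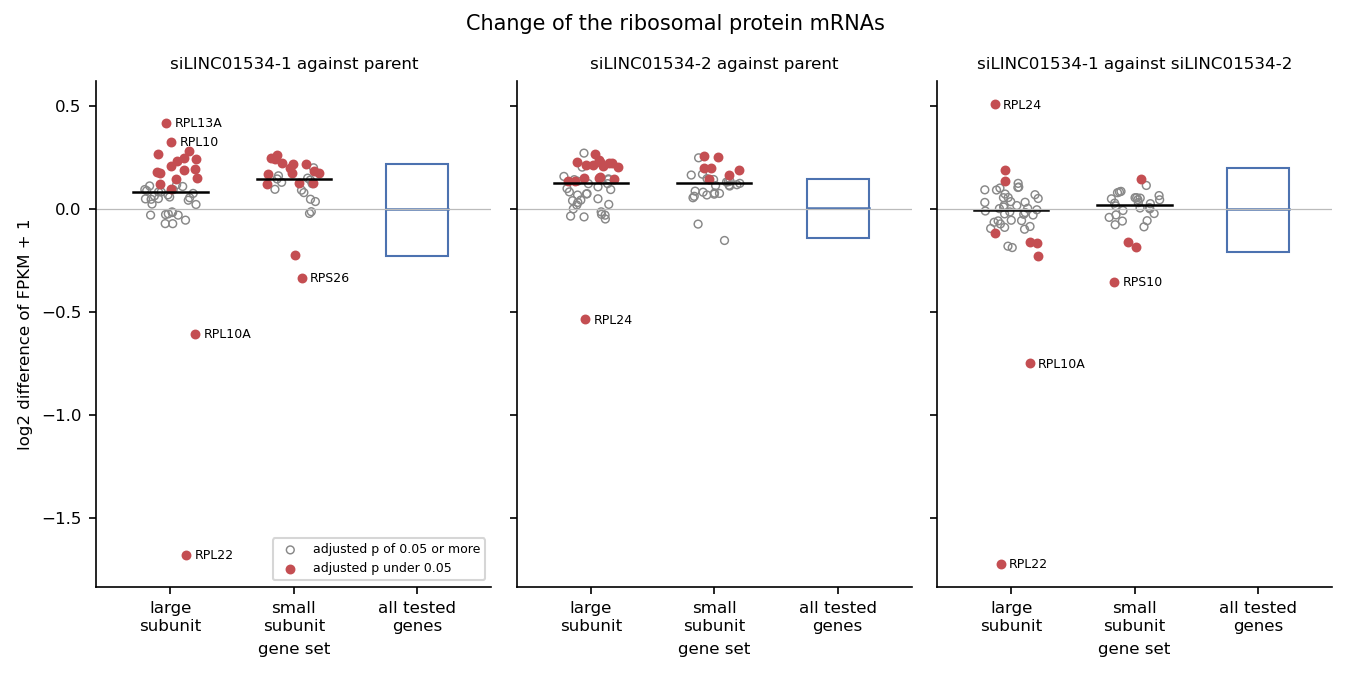
Log2 difference of FPKM + 1 for each gene of the large and small subunit in 3 comparisons, with the median as a black line and with filled points at an adjusted p under 0.05; the box shows the quartiles and median of all 12203 tested genes. Most genes lie between 0 and 0.3 against parent, and RPL22, RPL10A and RPL24 fall far below the rest.

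Large and small subunit genes were then read apart. With siLINC01534-1, 16 of 46 large subunit genes were higher and 2 lower, with a median log2 difference of 0.08, and 14 of 30 small subunit genes were higher and 2 lower, with a median of 0.14. With siLINC01534-2, 16 large subunit genes were higher and 1 was lower, and 7 small subunit genes were higher and 0 were lower, with medians of 0.13 in both. When the siRNA groups were averaged and set against parent, 17 large and 18 small subunit genes were higher and 3 and 1 lower, where 17.1% of all tested genes were higher and 20.1% lower, 37.2% in all. These 39 calls became fewer whichever library was left out. The share called in the family then exceeded that over all tested genes only without parent library 2 or siLINC01534-2 library 2. The median log2 difference of the family in these fits ran from 0.09 (without parent library 1) to 0.14 (without parent library 2). When the 4 siRNA libraries were treated as 1 group, 2 genes were called, 2.63% of the family against 2.96% of all tested genes.

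Summed over its members, the family held 21.4% and 21.8% of the FPKM of a parent library, leaving out short RNA genes, whose FPKM can rest on very few reads. The genes left out held 54.9% to 61.3% of the whole summed FPKM of a library. The share of the family was 23.8% and 23.6% with siLINC01534-1 and 23.2% in both siLINC01534-2 libraries. On this reduced sum every siRNA library thus lay above both parent libraries. The level and the separation hold for this sum, and the share of the whole sum was not examined. The large subunit went from a mean share of 12.4% ± 0.147 (SD, n = 2) to 13.4% ± 0.0226 with siLINC01534-1 and 13.2% ± 0.0332 with siLINC01534-2. The small subunit went from 9.21% ± 0.172 to 10.3% ± 0.0921 and 10.01% ± 0.0117. The ratio of large to small subunit FPKM was 1.35 and 1.34 in parent cells, 1.29 and 1.30 with siLINC01534-1, and 1.32 and 1.32 with siLINC01534-2, and the 3 groups did not overlap. With 2 libraries against 2 no permutation test can pass a threshold of 0.05, and none was made.

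**Figure D3:**
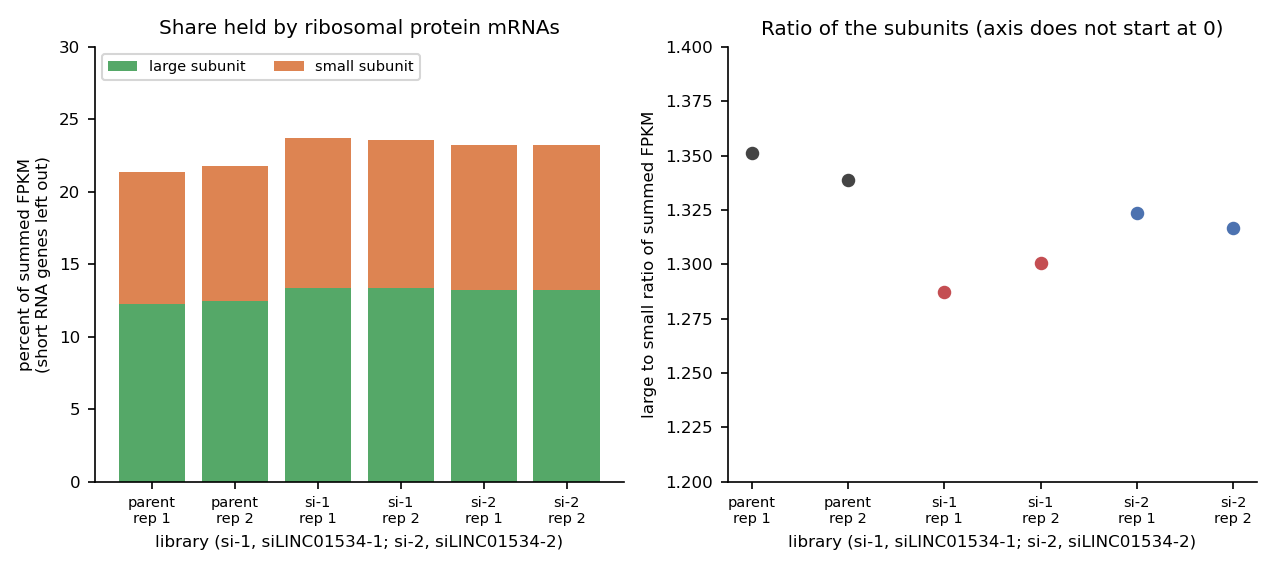
Left, percent of the summed FPKM of each library held by large and small subunit genes, short RNA genes left out; right, ratio of large to small subunit FPKM, on an axis that does not start at 0. The share is 21.4% and 21.8% in the parent libraries and 23.2% to 23.8% in the siRNA libraries, and the ratio is highest in parent cells.

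A few genes of the family fell. RPL22, an RNA-binding protein on the surface of the large subunit, was measured at 234.1 and 230.5 FPKM in parent cells, at 73.6 and 70.2 FPKM with siLINC01534-1, and at 243.0 and 235.4 FPKM with siLINC01534-2. The siLINC01534-1 libraries thus lay far below the other 4. Its ratio to parent was 0.309, a log2 difference of -1.68 (SE 0.038, limma adjusted p = 2.23e-05), and 73 of the 12203 tested genes had a lower log2 difference. The values rest on an estimated 4400 and 4290 reads in parent cells and 1210 and 1320 reads with siLINC01534-1. With siLINC01534-2 its log2 difference from parent was 0.04, with a 95% interval from -0.05 to 0.14.

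RPL10A forms the mobile L1 stalk, which guides the spent tRNA out of the ribosome. It was measured at 1196 and 1259 FPKM in parent cells, 808.2 and 802.2 FPKM with siLINC01534-1, and 1349 and 1360.1 FPKM with siLINC01534-2. Its siLINC01534-1 libraries were the lowest and its siLINC01534-2 libraries the highest, without overlap. The log2 difference from parent was -0.61 (SE 0.037, limma adjusted p = 2.18e-04) with siLINC01534-1 and 0.14 (adjusted p = 0.0457) with siLINC01534-2.

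RPS26 lies at the exit of the mRNA channel and contacts the mRNA upstream of the start codon. Its level was 622.9 and 633.5 FPKM in parent cells, 518.7 and 476.6 FPKM with siLINC01534-1, and 554.2 and 575.2 FPKM with siLINC01534-2. All 4 siRNA libraries were below both parent libraries. The log2 difference was -0.34 (SE 0.049, limma adjusted p = 0.00368) with siLINC01534-1, and it was -0.15 (adjusted p = 0.0789) with siLINC01534-2, which did not pass the threshold.

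RPS10, a protein of the head of the small subunit that the ubiquitin ligase ZNF598 marks on collided ribosomes, was measured at 1279 and 1344 FPKM in parent cells. It stood at 1105 and 1138 FPKM with siLINC01534-1 and at 1465 and 1405 FPKM with siLINC01534-2. The siLINC01534-1 libraries were the lowest 2 of the 6. The log2 difference was -0.23 (SE 0.043, limma adjusted p = 0.00883) with siLINC01534-1, and the adjusted p was 0.0635 without siLINC01534-1 library 1, the highest in a range from 0.00413 over all alternatives.

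With siLINC01534-2 the gene that fell was RPL24, a large subunit protein that forms a bridge to the small subunit. It was measured at 1103 and 1163 FPKM in parent cells, 1081 and 1137 FPKM with siLINC01534-1, and 806.2 and 755.7 FPKM with siLINC01534-2. The siLINC01534-2 libraries were well below the other 4, which overlapped. The ratio to parent was 0.689 and the log2 difference -0.54 (SE 0.051, limma adjusted p = 0.00313), and 267 of the 12203 tested genes had a lower log2 difference.

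**Figure D4:**
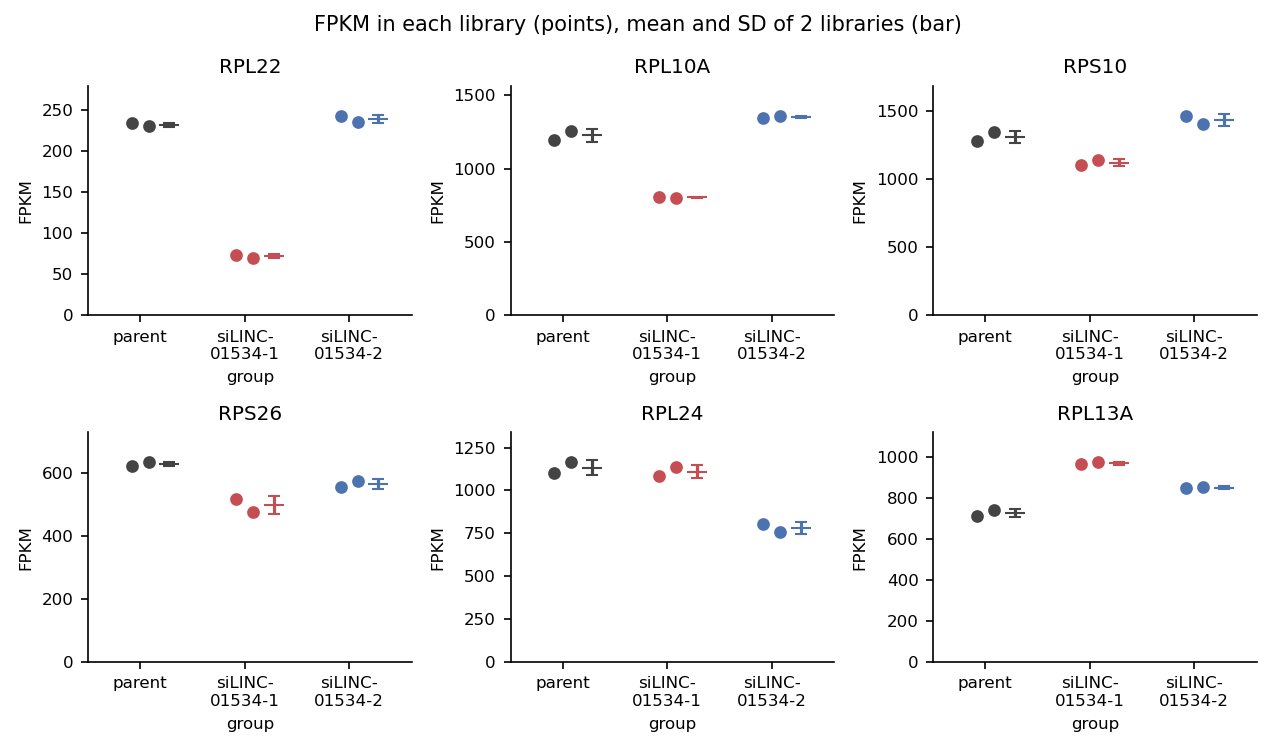
FPKM of RPL22, RPL10A, RPS10, RPS26, RPL24 and RPL13A in each of the 6 libraries (points), with the mean and SD of the 2 libraries of a group beside them. RPL22, RPL10A and RPS10 are lowest with siLINC01534-1, RPL24 with siLINC01534-2, and RPL13A is lowest in parent cells.

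The direct comparison of the siRNAs tested which genes responded differently. It called 13 of the 76 genes, 4 higher and 9 lower with siLINC01534-1, or 17.1% of the family against 41.8% of all tested genes. The median log2 difference was -0.01 in the large and 0.02 in the small subunit. Which genes passed depended on the scale. Scaling each library by its sum without short RNA genes gave 12 higher and 6 lower, 23.7% of the family against 41.7% of all tested genes. With the family itself also left out of that sum there were 14 and 6, or 26.3% against 42.3%. Each of the 13 kept its direction under every alternative. The count fell whichever library was left out, and the share called in the family stayed below that over all tested genes. RPL22 (-1.72, limma adjusted p = 2.68e-05), RPL10A (-0.75, adjusted p = 1.99e-04), RPS10 (-0.36, adjusted p = 0.0023) and RPL24 (0.51, adjusted p = 0.00133) were past the threshold under every alternative tried.

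The other differences between the siRNAs were small. RPL26, which binds MDM2, was measured at 1789 and 1709 FPKM with siLINC01534-1 and at 2083 and 2015 FPKM with siLINC01534-2, a log2 difference of -0.23 (limma adjusted p = 0.0322), while the parent libraries, with 1739 and 1941 FPKM, spanned much of that range. RPS26 differed by -0.18 (adjusted p = 0.0322) and this call was lost under 11 alternatives. RPL13A, which takes part in translational silencing after release from the ribosome, differed by 0.19 (adjusted p = 0.00807). RPL23, another MDM2-binding protein, and RPS27 differed by 0.14 each (adjusted p = 0.0345 and 0.0422).

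RPL13A had the largest increase with siLINC01534-1. Its level was 715.2 and 740.4 FPKM in parent cells, 965.1 and 975.4 FPKM with siLINC01534-1 and 848.0 and 856.6 FPKM with siLINC01534-2, in 3 groups that did not overlap. The log2 difference from parent was 0.41 (SE 0.033, limma adjusted p = 4.75e-04) and 0.23 (adjusted p = 0.00925). Its copy RPL13AP5, with which it may share reads, was at 1702 and 1718 FPKM with siLINC01534-1 and at 1711 and 1691 FPKM with siLINC01534-2, above its parent libraries as well.

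RPL10, which joins the large subunit late in its maturation near the peptidyl transferase centre, was measured at 453.8 and 475.3 FPKM in parent cells, 579.1 and 585.3 FPKM with siLINC01534-1 and 534.6 and 551.4 FPKM with siLINC01534-2. Both siRNA groups lay above parent, by 0.33 (limma adjusted p = 0.00159) and 0.22 (adjusted p = 0.0137) on the log2 scale. RPL27A rose from the lowest level of the family, by 0.27 (adjusted p = 0.00426) and 0.21 (adjusted p = 0.0202), with 185.6 and 180.7 FPKM with siLINC01534-1 and 180.3 and 172.6 FPKM with siLINC01534-2. RPL13 was higher by 0.17 (adjusted p = 0.024) and 0.24 (adjusted p = 0.0181).

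The stalk of the large subunit, where elongation factors bind, consists of RPLP0, RPLP1 and RPLP2, with RPL12 at its base. RPLP1 was measured at 4405 and 4057 FPKM with siLINC01534-1 and at 4212 and 4148 FPKM with siLINC01534-2, above both parent libraries and by 0.28 (limma adjusted p = 0.0074) and 0.27 (adjusted p = 0.0197) on the log2 scale. Its partner RPLP2 was higher by 0.21 (adjusted p = 0.0356) and 0.22 (adjusted p = 0.0492). RPL12 was higher by 0.19 (adjusted p = 0.00938) and 0.22 (adjusted p = 0.0144). RPLP0 was higher by 0.18 (adjusted p = 0.0107) with siLINC01534-1, and its difference of 0.12 with siLINC01534-2 did not pass the threshold (adjusted p = 0.0599).

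In the small subunit, RPS19, the protein most often mutated in Diamond-Blackfan anaemia, was measured at 1152 and 1155 FPKM in parent cells, 1346 and 1388 FPKM with siLINC01534-1 and 1398 and 1352 FPKM with siLINC01534-2. The 4 siRNA libraries overlapped each other and lay above the parent libraries. The log2 difference from parent was 0.24 (limma adjusted p = 0.00361) and 0.25 (adjusted p = 0.00876). RPS18 was higher by 0.26 with either siRNA (adjusted p = 0.013 and 0.027). RPS6, the substrate of the S6 kinases, was higher by 0.22 (adjusted p = 0.00743) and 0.16 (adjusted p = 0.0366). RPSA, also known as the laminin receptor precursor, was higher by 0.17 (adjusted p = 0.00976) and 0.14 (adjusted p = 0.0335).

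The components of the 5S particle that bind MDM2 did not pass the threshold. RPL5 was measured at 1148 and 1176 FPKM in parent cells, 1130.1 and 1169 FPKM with siLINC01534-1, and 1135 and 1139 FPKM with siLINC01534-2. Its log2 difference from parent was -0.02 (95% interval -0.10 to 0.07) and -0.03 (-0.12 to 0.06). That of RPL11 was 0.05 (-0.06 to 0.16) with siLINC01534-1 and 0.14 (0.03 to 0.25, limma adjusted p = 0.072) with siLINC01534-2. The remaining members chosen for their role showed differences of the same small size. RPL3 and RPL4, which assemble early around the catalytic centre and exit tunnel, were at 0.15 (adjusted p = 0.0289) and 0.13 (adjusted p = 0.0495) with siLINC01534-2 and did not pass with siLINC01534-1. RPL39 of the exit tunnel, RPS3 at the mRNA entry, RPS14 of the platform and the ubiquitin fusion RPS27A passed the threshold with neither siRNA, at log2 differences from 0.05 to 0.16, and nor did RPL41.

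The seed matches were then set beside these changes. The 7-mer GAATAAA lay in the 3′ UTR of 10 of the 76 genes (13.2%, longest coding transcript), against 26.6% of the 11163 tested genes with a coding transcript. These genes were RPL10A, RPL15, RPL22, RPL28, RPL31, RPL37, RPL4, RPS10, RPS14 and RPS23. In this transcript the match starts 9 to 54 bases after the stop codon in RPL10A, RPL22 and RPL4. It starts 701 bases after it in RPS10 and at least 269 bases after it in the rest, up to 6374 in RPL37. Which transcripts the cells express was not examined, so some of these matches may not be present in their mRNAs. With siLINC01534-1, 3 of the 10 were lower (RPL22, RPL10A and RPS10) and 3 were higher, while of the 66 genes without the 7-mer 1 was lower (RPS26) and 27 were higher. With siLINC01534-2, whose seed differs, 0 of the 10 were lower and 4 were higher. The median log2 difference with siLINC01534-1 was 0.08 in the 10 genes and 0.12 in the 66.

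Of all tested genes with the 7-mer, 41.1% were lower and 14.5% higher with siLINC01534-1, and of those without it 20.5% were lower and 25.3% higher. The 3 of 10 lower in the family (30%) are thus not above the share over all genes with the 7-mer, and the 1 of 66 (1.52%) lies below that over all genes without it. With siLINC01534-2, 11.6% of the genes with the 7-mer were lower and 11.1% higher. The median log2 difference over all tested genes with siLINC01534-1 was -0.14 in the 2974 genes with the 7-mer and 0.03 in the 8189 without it. With siLINC01534-2 these medians were 0.01 and 0.00. RPL4, whose site is printed above, was not called lower, at 1479.9 and 1498 FPKM in parent cells and 1543 and 1593 FPKM with siLINC01534-1. The 7-mer TTCGAGT of siLINC01534-2 was found in the 3′ UTR of RPL37A alone among the 76 genes, which was higher by 0.20 (limma adjusted p = 0.016) with that siRNA. RPL10A held a further GAATAAA in its coding sequence and RPS7 a TTCGAGT. In the canonical transcript of RPL26 a GAATAAA lay across the stop codon. Neither 7-mer was found in the coding sequence or 3′ UTR of RPL24 or RPS26. Whether pairing with the siRNAs lowered any of these mRNAs was not tested.

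**Figure D5:**
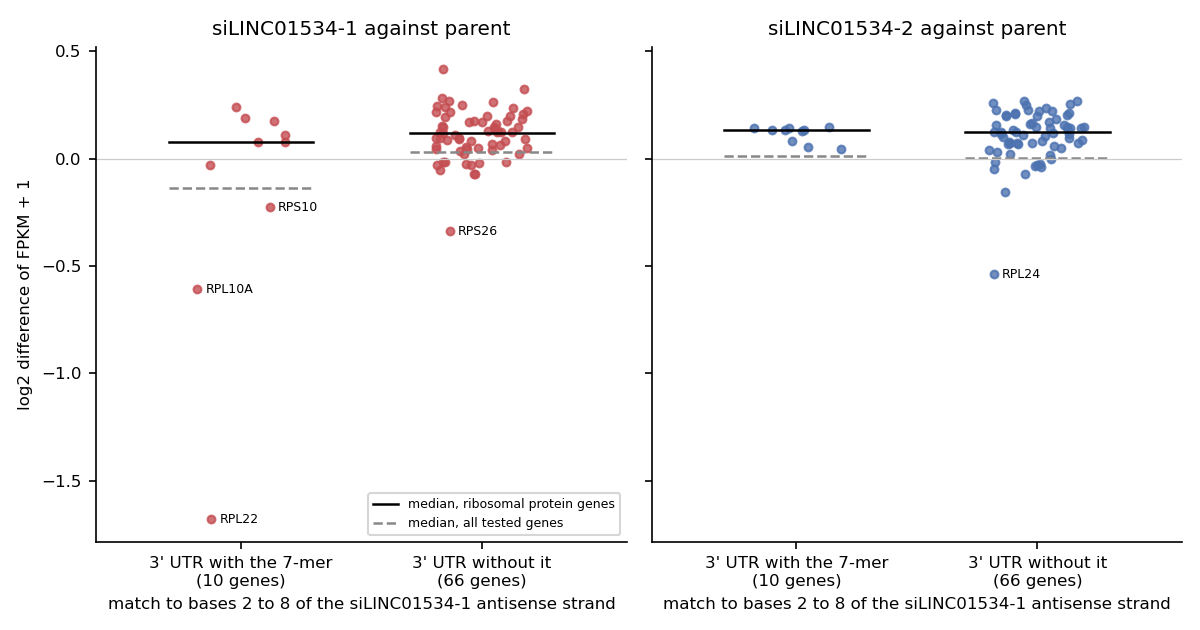
Log2 difference of FPKM + 1 against parent for the 10 ribosomal protein genes with the seed match of siLINC01534-1 in the 3′ UTR and the 66 without it, for either siRNA, with medians of the family (black) and of all tested genes (dashed). RPL22, RPL10A and RPS10 lie low with siLINC01534-1 and do not with siLINC01534-2.

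Ribosomal proteins that the naming rule misses were read beside the family. FAU and GNB2L1 (RACK1), which encode a small subunit protein and a scaffold on the small subunit, passed the threshold with neither siRNA. Their mean FPKM in parent cells was 994 and 1497. The calls in these and the following lists stand beside 21.8% higher and 24.5% lower of all tested genes with siLINC01534-1 and 11.1% and 11.8% with siLINC01534-2. Of the 8 paralogs, 5 were tested, and with siLINC01534-1 3 were lower and 1 was higher.

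RPL22L1, the paralog that can take the place of RPL22, was measured at 99.6 and 103.2 FPKM in parent cells, 65.4 and 60.5 FPKM with siLINC01534-1 and 109.4 and 118.0 FPKM with siLINC01534-2. It was thus lower, as RPL22 was, with a log2 difference of -0.68 (limma adjusted p = 5.78e-04), and with siLINC01534-2 the difference was 0.16 (adjusted p = 0.0988). RPL26L1 fell from 88.5 and 102.4 to 46.7 and 42.3 FPKM with siLINC01534-1. RPL7L1, a factor of ribosome assembly, fell from 99.96 and 99.24 to 60.5 FPKM in both siLINC01534-1 libraries and to 76.6 and 82.0 FPKM with siLINC01534-2. RPS27L, a p53 target, was higher with siLINC01534-1, at 96.2 and 104.9 against 78.5 and 84.9 FPKM.

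Of the elongation factors, most of whose mRNAs also carry a TOP tract, 5 of 7 were higher and 2 lower with siLINC01534-1, and 6 were higher and 1 lower with siLINC01534-2. EEF1A1, which brings aminoacyl-tRNA to the ribosome, rose from 3511 and 3561 FPKM in parent cells to 4796 and 4975 FPKM with siLINC01534-1 and to 4200.1 and 4240.4 FPKM with siLINC01534-2. EEF1A2 was lower with siLINC01534-1 and higher with siLINC01534-2. Lower in both comparisons was EIF5A, which keeps ribosomes moving through proline-rich stretches, at 1156 and 1197 FPKM in parent cells, 465.5 and 478.2 FPKM with siLINC01534-1 and 1078 and 1047 FPKM with siLINC01534-2. Other mRNAs with a TOP tract went in both directions, with 4 of 14 higher and 5 lower with siLINC01534-1 and 2 higher and 4 lower with siLINC01534-2. Among them TPT1 rose from 315.3 and 314.2 FPKM to 387.5 and 382.0 FPKM with siLINC01534-1, and NPM1, the nucleolar protein nucleophosmin, fell from 1946 and 1977 to 1607 and 1631 FPKM.

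Genes that act with ribosomal proteins were read in the same way. Of 18 initiation factors outside eIF2, 4 were higher and 10 lower with siLINC01534-1 and 2 higher and 7 lower with siLINC01534-2. Of 9 dedicated chaperones of ribosomal proteins, 1 was higher and 5 were lower with siLINC01534-1, and 0 passed the threshold with siLINC01534-2. TSR2, the chaperone of RPS26, was among the lower ones, at 39.3 and 46.8 FPKM in parent cells and 34.3 and 34.5 FPKM with siLINC01534-1. Of 14 genes of mTORC1 and TOP mRNA control, 2 were higher and 6 lower with siLINC01534-1 and 0 and 2 with siLINC01534-2. RPS6KB1, the kinase of RPS6, fell from 24.0 and 22.6 to 12.5 and 11.7 FPKM with siLINC01534-1. Of 11 genes of ribosome collision and rescue, 3 were higher and 0 lower with siLINC01534-1, and 2 and 2 with siLINC01534-2. PELO, which splits stalled ribosomes, rose from 15.7 and 17.1 to 26.8 and 28.8 FPKM, and ZNF598 stood at 25.1 and 24.9 FPKM in parent cells and 24.2 and 24.6 FPKM with siLINC01534-1. Of the 14 tested pseudogenes, 5 were higher with siLINC01534-1 and 2 with siLINC01534-2, and 0 were lower.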

How the data were processed

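The authors made stranded mRNA libraries from total RNA and sequenced single-end reads of 75 bases. According to the submitters' processing notes, reads were mapped to hg19 with TopHat2 2.0.13, Bowtie2 2.2.3 and SAMtools 0.1.19. The deposited values are the FPKM that the authors computed with Cuffnorm (Cufflinks 2.2.1) for each gene symbol and library, and the annotation is not given in the sources used here. The methods mention triplicate cultures, while the labels give 2 libraries per group. Groups were taken from the labels, and all 6 libraries were used.

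The deposited FPKM were taken to log2(FPKM + 1), and the 12203 genes whose mean FPKM reached 1 were fitted with limma 3.58.1 in R 4.3.3, with group means, a spread common to the 3 groups and a mean-variance trend, without a replicate block. P-values are two-sided and were adjusted over all tested genes (Benjamini-Hochberg, threshold 0.05), and differences are on the log2(FPKM + 1) scale. In data simulated for siLINC01534-1 against parent on 12203 genes, 100 of 100 genes changed by 1 on the log2 scale were recovered, 50 of 100 changed by 0.25, and 11 unchanged genes were called. The simulation used normal noise from a smooth trend and changed far fewer genes than the 46.3% called in the data. Its recovery and false calls may therefore differ from those of the main fit. Ratios are of arithmetic means of FPKM.

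The files hold no read counts. Depth was estimated from the spacing of low values, using 262 genes with 1 transcript and 200 bases taken off its length, and its limits on precision could only be judged from that estimate. Seed matches were sought in the longest coding transcript of GENCODE v44lift37 (GRCh37), which 11163 tested genes (91.5%) had. Start windows and motifs come from RefSeq promoters of GRCh38.p14, which span 250 bases before to 50 after the start. Genes named are those among the 5 largest increases or decreases past the threshold in any comparison, the 5 highest and 5 lowest in parent cells, and members chosen for their role. RPL15, RPL34, RPL36A and RPS13 are outside this rule and were named after their values were seen, as were members named for a seed match. The values of some genes of the family and its lists are not reported here. The members and lists were chosen with earlier results of these data known. Python 3.11.15, pandas 2.3.3 and numpy 2.4.6 were used for the other steps.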

Additional observations from a re-analysis of the deposited data

Results flagged for a closer look

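The 13 genes below differed between siLINC01534-1 and siLINC01534-2 in the limma test of the difference itself (adjusted p under 0.05 over all tested genes, 2 libraries per group). Values are log2 differences of FPKM + 1, siLINC01534-1 minus siLINC01534-2. The most negative was that of RPL22 at -1.72, followed by RPL10A at -0.75, RPS10 at -0.36, RPL26 at -0.23 and RPS26 at -0.18. RPL34, a large subunit protein, differed by -0.17, with 316.6 and 290.4 FPKM against 340.7 and 339.6 FPKM. RPL15 differed by -0.16, with 440.5 and 441.9 FPKM against 499.9 and 486.8 FPKM, and RPS13 by -0.16, with 1289 and 1224 FPKM against 1421 and 1387 FPKM. RPL36A differed by -0.12, and it was above parent in all 4 siRNA libraries. Higher with siLINC01534-1 were RPL23 by 0.14, RPS27 by 0.14, RPL13A by 0.19 and RPL24 by 0.51. RPL22, RPL10A, RPS10 and RPL24 kept the call under every alternative, and each of the other 9 lost it under at least 1.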

How the results depend on the processing

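Of 66 tests of single named genes, all chosen as past the threshold in the main fit, 13 stayed past it under every alternative. Over all alternatives 715 values stayed past it, 275 lost it and 0 changed direction. The counts of called genes moved more, and the main counts were 34 with siLINC01534-1 against parent, 24 with siLINC01534-2, 39 for the mean of both and 13 between the siRNAs. Without the filter on low values (19025 genes tested) they were 19, 7, 21 and 7. These were 25%, 9.21%, 27.6% and 9.21% of the family, against 27.3%, 11.2%, 20.5% and 24.3% of all tested genes. Scaling by the sum without short RNA genes gave 40 calls with siLINC01534-2 (52.6% against 22.3%). Leaving the family out of that sum as well gave 61, 45, 61 and 20. The latter were 80.3%, 59.2%, 80.3% and 26.3% of the family, against 46.7%, 22.5%, 36.5% and 42.3% of all tested genes. Limma without the trend gave 12 with siLINC01534-2 (15.8% against 19.1%) and 6 between the siRNAs (7.89% against 40.1%). A fit of only the 2 groups compared gave 8 with siLINC01534-2 (10.5% against 15.4%), and the 4 siRNA libraries as 1 group gave 2 (2.63% against 2.96%). The larger share of calls in the family with siLINC01534-2 was thus also turned round without the filter, without the trend and with only the 2 groups compared. The cause of these moves was not tested, and the alternatives differed in the genes or libraries fitted, the scale, the trend or the grouping. Leaving out 1 library at a time gave fewer calls than the main fit in every comparison. Each lone library left is then assumed to vary like the other groups.

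The median log2 differences by subunit stayed above 0 against parent under every alternative. With the sum without short RNA genes and the family as the scale they were 0.14 (large) and 0.20 (small) with siLINC01534-1 and 0.13 and 0.18 for the mean of both, and between the siRNAs they were 0.0333 and 0.0605, or 0.0251 and 0.0523 with the family kept in the sum. Leaving out 1 library gave, for the large and small subunit, 0.0598 to 0.11 and 0.10 to 0.19 with siLINC01534-1, 0.0898 to 0.14 and 0.0981 to 0.15 with siLINC01534-2, 0.0576 to 0.12 and 0.10 to 0.17 for the mean of both, and -0.03 to 0.01 and 0.01 to 0.03 between the siRNAs. Over coding genes that passed the filter the share of the family was 22.3% in parent cells, 24.6% with siLINC01534-1 and 24.1% with siLINC01534-2. The large to small ratio was 0.928, 0.910 and 0.912 from the median FPKM of each subunit, and 1.51, 1.46 and 1.48 without the 5 most abundant genes, so it was highest in parent cells each time. At a fold of 1.5, 2 genes passed with siLINC01534-1, RPL22 and RPL10A. The canonical transcript, chosen after the values were seen, gave 9 genes with the seed match of siLINC01534-1 in the 3′ UTR in place of 10.

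The labels share replicate numbers. Deviations of same-numbered libraries from their group means had correlations over 12203 genes of 0.11, 0.03 and -0.05. With 1 deviation per gene and group these values cannot decide whether the number pairs the libraries. Adding this number to the fit as a replicate block gave 26 calls with siLINC01534-1, 11 with siLINC01534-2, 28 for the mean of both and 6 between the siRNAs. These were 34.2%, 14.5%, 36.8% and 7.89% of the family, against 41.9%, 16.3%, 31.9% and 36.4% of all tested genes.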
